A study of Drosophila mojavensis with 127 samples.

Results

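Males of the fly Drosophila mojavensis from Punta Onah, Sonora, were compared between 2 host cacti. The males were chosen by their labels (population Punta Onah, sex male) and made up 16 of the 127 arrays of the series. All came from 1 wild-type stock, PO07, and had been reared on fermenting cultures of either pitaya agria (Stenocereus gummosus) or organ pipe cactus (Stenocereus thurberi). Each cactus was represented by 4 arrays of mated and 4 arrays of nonmated males. The host difference is given throughout as organ pipe minus agria, first with both mating states weighted equally, then in mated and nonmated males separately. The comparison groups were males of 3 other wild-type stocks reared in the same way, OPNM08 from Organ Pipe National Monument, Arizona, PP08 from Punta Prieta and SQ08 from San Quintin, both in Baja California, and the females of Punta Onah. The age of the flies and the tissue are not stated in the labels. Each population is 1 laboratory stock, so population and stock cannot be told apart. Whether replicates were separate cultures is not stated; the p-values then measure only the spread between these arrays, which may be technical.

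Drosophila mojavensis feeds and breeds in the fermenting, rotting tissue of columnar cacti. The principal host is agria in Baja California and organ pipe on much of the mainland, and the necroses of these plants differ in their chemistry, yeasts and bacteria. Larval host plant is known to affect development, the waxy hydrocarbons of the adult cuticle and courtship success in this species.

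The values were log2 expression values of 14528 transcripts, known by identifier alone. The gene table supplied for the species listed 0 of these identifiers, so no transcript could be given a gene name, a function, a position or a sequence. Transcripts were described in place of this by how they behaved in arrays outside the Punta Onah males, namely by sex difference, mating difference, host difference, population difference and level. Array medians of the 16 males lay between 10.44 and 10.64. The labels were checked against the values. An index of 200 male-biased minus 200 female-biased transcripts, chosen in the other 3 populations, lay between 4.08 and 5.01 in the Punta Onah males. It lay between -4.82 and -3.13 in all 62 female replicates, and between 1.19 and 5.13 in the 45 other male replicates. The lowest of these was replicate 1 of mated Organ Pipe National Monument males on agria. Replicate 1 of nonmated Punta Prieta males on organ pipe followed at 2.91. Both were kept among the other males, and the cause of their low values was not tested. A second index, made from 14 transcripts that Punta Onah females had at a level at least 2-fold above other females and 8 at least 2-fold below, lay between 1.60 and 3.57 in the Punta Onah males. It reached at most 1.01 in males from Baja California, but overlapped with males of Organ Pipe National Monument (0.97 to 2.72). Nonmated males on organ pipe had the highest values of this index, 3.26 to 3.57, near and above those of Punta Onah females (2.14 to 3.28).

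One feature of the arrays bears on every result that follows. Of the 4 Punta Onah male groups, 3 stood apart from the males of the other populations and 1 did not. Compared with the same host and mating state in the other 3 populations, nonmated males on organ pipe differed in 975 transcripts, 6.71% of all tested (limma, adjusted p under 0.05). Mated males on organ pipe differed in 5618 transcripts (38.7%), mated males on agria in 5752 (39.6%) and nonmated males on agria in 7182 (49.4%). Differences of at least 2-fold numbered 78 (0.537%), 829 (5.71%), 748 (5.15%) and 1068 (7.35%) in the same order. For scale, males of Baja California differed from those of Organ Pipe National Monument in 5706 of 14528 transcripts, 80 of them by at least 2-fold. That comparison took all hosts and mating states together and rested on more arrays, 29 against 16 replicates. Transcripts were also counted without a test where all 4 arrays of a group lay outside the range of the 45 other male replicates. These numbered 36 (0.248% of all) for nonmated and 426 (2.93%) for mated males on organ pipe. For mated males on agria there were 725 (4.99%) and for nonmated males on agria 780 (5.37%). The 12 other male groups had 4 (0.0275%) to 239 (1.65%). Each of those was set against the 29 to 31 male replicates of the remaining populations outside Punta Onah. In 103 of 14528 transcripts all 12 arrays of the 3 groups lay below every one of the 45 other males, and in 90 above. The nonmated males on organ pipe stayed within the range of the other males in 78 and 67 of them. In 50 and 20 of the 14528 transcripts the 12 arrays lay below or above all 111 other replicates of the series, the Punta Onah females included. These comparisons with other males were added once the values were known.

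The titles number the arrays of the 3 groups that stood apart from 1 to 12 and those of nonmated males on organ pipe from 13 to 16. The array format holds 12 arrays to a slide. No label or file used here assigns an array to a slide, a labelling round or a scan, and the part of any of these in the results was not tested. The host comparison in mated males lay within the arrays numbered 1 to 12, whereas that in nonmated males joined the arrays numbered 5 to 8 with those numbered 13 to 16.

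In a principal component analysis of the 16 arrays, component 1 took up 45.8% of the variance, and host accounted for 62.8% of the variation along it. Nonmated males on organ pipe lay at 41.3 to 45.4 on it, far from mated males on organ pipe (-14.0 to 18.9), mated males on agria (-42.9 to -8.0) and nonmated males on agria (-38.7 to -15.8). Mated males on agria overlapped on this axis with mated males on organ pipe and with nonmated males on agria. On the second component, with 17.3% of the variance, mating status accounted for 43.4% of the variation and host for 1.05%. Across transcripts, arrays of mated males on organ pipe correlated with those of mated males on agria at a mean r of 0.973, and with those of nonmated males on organ pipe at 0.961; nonmated males on agria and on organ pipe had a mean of 0.933. Of the 4 nonmated arrays on organ pipe, replicate 4 lay closer to the mean of nonmated Organ Pipe National Monument males on agria (r = 0.986) than to that of its own group.

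**Figure D1:**
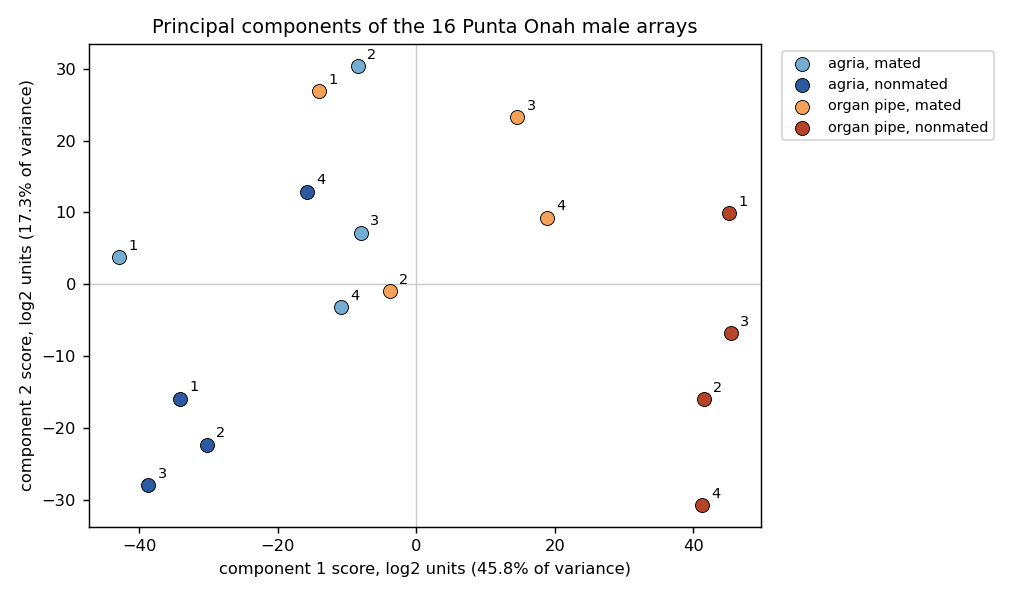
Scores of the 16 Punta Onah male arrays on principal components 1 and 2 (log2 units; 45.8% and 17.3% of the variance), coloured by cactus and mating status, with the replicate number beside each point. The 4 arrays of nonmated males on organ pipe lie at 41.3 or higher on component 1, and all 12 others at 18.9 or lower.

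With both mating states weighted equally, 5363 transcripts differed between the cacti in Punta Onah males, 36.9% of all tested. On organ pipe 2430 were higher (16.7%) and 2933 lower (20.2%). This majority turned to 2636 higher and 2376 lower after quantile normalization, and to 2110 higher and 1520 lower without the dimmest 25% of transcripts. Most of these differences were modest: a change of 2-fold or more was seen in 2.2% of all, 131 higher (0.902%) and 189 lower (1.3%). The 8 organ pipe and 8 agria arrays did not overlap in 194 transcripts, 91 higher (0.626% of all) and 103 lower (0.709%), of which 90 and 99 passed the test. The called differences of 2-fold or more became 176 higher and 98 lower after quantile normalization, so which direction held more of them depended on the scaling.

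FBtr0172202 had the largest rise among called transcripts without overlap. Its log2 values on agria were 6.01, 6.25, 6.75 and 6.31 in mated and 6.32, 6.10, 6.52 and 6.49 in nonmated males. On organ pipe they were 7.00, 6.94, 7.84 and 7.37 in mated and 8.96, 8.56, 8.59 and 8.51 in nonmated males. The agria arrays were alike in both mating states, and the mated organ pipe arrays lay between them and the nonmated ones. The difference was 1.63 ± 0.13 (SE, log2; 3.09-fold, adjusted p in limma 7.15e-18), made up of 0.96 ± 0.19 in mated and 2.29 ± 0.19 in nonmated males. In the 45 other male replicates FBtr0172202 ranged from 7.73 to 8.97 with a median of 8.40, so that every agria array and 3 of the 4 mated organ pipe arrays from Punta Onah lay below all other males. FBtr0164444 followed with a rise of 1.37 ± 0.15 (SE, log2; 2.59-fold, adjusted p 1.32e-11). It averaged 7.43 ± 0.31 and 7.46 ± 0.21 in mated and nonmated males on agria, against 8.27 ± 0.54 and 9.36 ± 0.20 on organ pipe (SD, n = 4 each), and its median in the other males was 8.91.

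FBtr0172678 had the largest fall by the same rule. On agria its values were 9.34, 8.93, 8.13 and 8.67 in mated and 8.99, 9.11, 8.68 and 8.79 in nonmated males. On organ pipe they were 8.12, 7.94, 7.37 and 8.05 in mated and 7.04, 6.94, 6.79 and 6.91 in nonmated males. The lowest agria array, 8.13, barely cleared the highest organ pipe array, 8.12. It fell by 1.44 ± 0.15 (SE, log2; 2.70-fold, adjusted p in limma 7.73e-13), and the other males had a median of 6.88 and a range of 6.38 to 7.94. FBtr0174751 fell by 1.43 ± 0.20 (SE, log2; 2.69-fold, adjusted p 1.94e-08), from 10.33 ± 0.41 and 10.77 ± 0.28 on agria to 9.50 ± 0.24 and 8.74 ± 0.43 on organ pipe (SD, n = 4 each, mated before nonmated). All 4 transcripts had their larger host difference in nonmated males. Among the Punta Onah male groups, the nonmated organ pipe mean lay closest to the median of the other males in the first 3, and the mated organ pipe mean in FBtr0174751 (median 9.31).

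Mated males showed few differences between the cacti. Of 14528 transcripts 269 passed the test (1.85%), 142 higher (0.977%) and 127 lower (0.874%) on organ pipe. Differences of 2-fold or more numbered 36 (0.248%), 8 higher (0.0551%) and 28 lower (0.193%). The 4 arrays of each cactus did not overlap in 489 transcripts higher on organ pipe (3.37% of all) and 504 lower (3.47%), of which 68 and 78 passed the test. This comparison rested on few arrays. The count was 16 without replicate 1 of mated males on agria, 66 and 39 without replicates 3 and 4 of mated males on organ pipe, and 675 without replicate 1 of mated males on organ pipe. With the spread estimated from the 16 Punta Onah male arrays alone limma called 0 transcripts, with 2022 at an unadjusted p under 0.05, against 2093 in the fit to all groups. Calls higher on organ pipe made up 52.8% of the total; quantile normalization raised this to 62.1%, and giving all arrays one median lowered it to 38.8%.

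Replicate 1 of mated males on agria was the array farthest along the agria side of component 1, at -42.9 against -10.9 to -8.0 for the other 3. Mated males on organ pipe also spread along this axis, with replicates 3 and 4 nearer the nonmated organ pipe males than replicates 1 and 2. The main direction in which the 4 replicates of a group differed from each other correlated across transcripts with the nonmated host difference at an absolute r of 0.61 in mated males on agria and 0.53 in mated males on organ pipe, against 0.37 and 0.10 in nonmated males on agria and organ pipe. In the 12 other male groups this value lay between 0.01 and 0.41. Its part in the mated comparison was not tested.

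FBtr0175580 had the largest fall in mated males. Its values were 10.97, 10.82, 11.28 and 10.62 on agria and 9.90, 8.60, 8.82 and 9.50 on organ pipe, without overlap. It fell by 1.71 ± 0.44 (SE, log2; 3.28-fold, adjusted p in limma 0.0202). In nonmated males the difference was -1.02 ± 0.44 with an adjusted p of 0.052, and the organ pipe arrays at 9.95, 10.34, 10.54 and 8.80 again lay below all 4 agria arrays at 10.85, 10.68, 11.35 and 10.83. FBtr0169215 fell by 1.67 ± 0.41 (SE; 3.18-fold, adjusted p 0.0148), from 10.56 ± 0.28 to 8.90 ± 0.34 (SD, n = 4 each). These 2 transcripts differed from those above in that Punta Onah females shared the direction: FBtr0175580 fell in females by 1.31 ± 0.31 (adjusted p 0.00797), while FBtr0169215 had a difference of -0.88 ± 0.29 (adjusted p 0.0614). In Organ Pipe National Monument males both went the other way, FBtr0175580 rising by 1.10 ± 0.31 (adjusted p 0.0112) and FBtr0169215 by 1.14 ± 0.29 (adjusted p 0.00482).

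FBtr0166055 had the largest rise in mated males, from 9.69, 9.19, 10.49 and 10.62 on agria to 10.91, 10.99, 10.79 and 11.51 on organ pipe. The difference was 1.05 ± 0.28 (SE, log2; 2.08-fold, adjusted p in limma 0.0263), and in nonmated males it was 0.10 ± 0.28 (adjusted p 0.802). FBtr0174553 rose by 1.03 ± 0.22 (SE; 2.05-fold, adjusted p 0.00412), from 8.18 ± 0.58 to 9.21 ± 0.37 (SD, n = 4 each), and by 1.60 ± 0.22 in nonmated males (adjusted p 4.05e-09). None of the 4 transcripts named for mated males stayed called under every alternative: without replicate 1 of mated males on agria their adjusted p-values were 0.118, 0.0993, 0.242 and 0.192 in the order named.

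Nonmated males showed many more differences. Of 14528 transcripts 5872 passed the test (40.4%), 2450 higher (16.9%) and 3422 lower (23.6%) on organ pipe. Differences of at least 2-fold numbered 1414 (9.73%), 575 higher (3.96%) and 839 lower (5.78%), and differences of at least 4-fold 73 and 29. The arrays of the 2 cacti did not overlap in 2386 transcripts higher on organ pipe (16.4% of all) and 2968 lower (20.4%), of which 1961 and 2444 passed the test. The count lay between 4846 and 5738 without each of the 8 arrays in turn, and was 5302 without replicate 4 of nonmated males on organ pipe. Quantile normalization reversed the majority of 2-fold differences, to 705 higher and 427 lower, while giving all arrays one median led to 649 and 720. Among all calls the majority of lower transcripts was small after quantile normalization, 2724 higher and 2846 lower, and turned to 2102 higher and 1969 lower without the dimmest 25% of transcripts.

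FBtr0168369 had the largest host difference of any called transcript without overlap. On agria its values were 8.61, 8.14, 8.45 and 8.41 in nonmated males and on organ pipe 12.97, 12.66, 12.83 and 12.80. It rose by 4.41 ± 0.24 (SE, log2; 21.3-fold, adjusted p in limma 4.56e-29). Mated males were low on both cacti, with 8.64, 8.26, 8.33 and 8.21 on agria and 8.36, 8.88, 9.07 and 8.73 on organ pipe, and their difference was 0.39 ± 0.24 (adjusted p 0.470). Outside the Punta Onah males this transcript was high everywhere, from 10.81 to 13.25 in 45 male replicates and from 12.64 to 13.62 in 62 female replicates. The nonmated males on organ pipe therefore had a level within that of other males, and the other 12 Punta Onah male arrays lay below every other replicate of the series.

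FBtr0172562 had the next largest rise, 3.99 ± 0.37 (SE, log2; 15.9-fold, adjusted p in limma 2.34e-15). Nonmated males had 8.84, 6.81, 6.56 and 7.11 on agria and 11.53, 11.26, 11.28 and 11.21 on organ pipe. Replicate 1 on agria was the highest of its group but still far below the organ pipe arrays. Mated males averaged 7.22 ± 0.37 on agria and 7.64 ± 0.78 on organ pipe (SD, n = 4 each), and the range of the other males was 8.86 to 11.97.

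FBtr0166278 had the largest fall in nonmated males. Its values were 9.30, 10.51, 8.94 and 9.17 on agria and 6.91, 7.44, 5.57 and 7.66 on organ pipe, where replicate 3 lay lowest and near the bottom of the range of all values on the arrays (4.64). The fall was 2.59 ± 0.35 (SE, log2; 6.00-fold, adjusted p in limma 3.37e-09). FBtr0161422 fell by 2.50 ± 0.33 (SE; 5.65-fold, adjusted p 1.82e-09), from 12.13 ± 0.29 to 9.63 ± 0.27 (SD, n = 4 each). In the other males the median of FBtr0166278 was 7.19 and its maximum 8.65, and FBtr0161422 one of 9.21 and a maximum of 11.33. The agria arrays of nonmated Punta Onah males lay above these maxima for both transcripts. FBtr0161422 went the other way in Punta Onah females, where it rose on organ pipe by 1.15 ± 0.24 (adjusted p 0.00263). Organ Pipe National Monument males shared the fall of FBtr0161422, with a host difference of -0.82 ± 0.24 (adjusted p in limma 0.0138). In Punta Prieta and San Quintin males it was not called (-0.24 ± 0.25 and -0.49 ± 0.25).

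**Figure D2:**
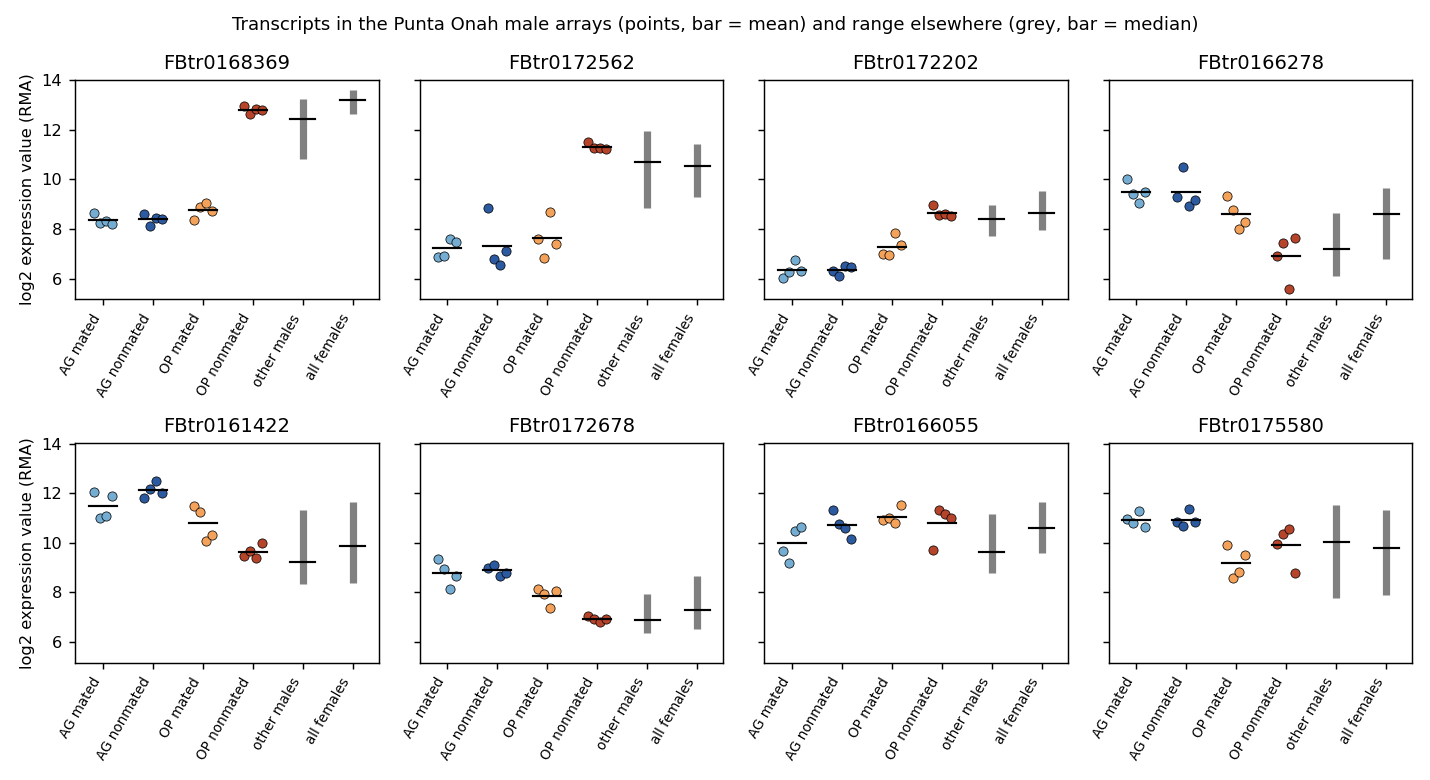
Log2 values of 8 transcripts named for the host difference, in each of the 16 Punta Onah male arrays (points, 4 per group, with the group mean as a bar; AG agria, OP organ pipe), beside the range and median over 45 other male and 62 female replicates (grey bars). For FBtr0168369 and FBtr0172562 the nonmated organ pipe arrays lie within the range of other males and the other 12 arrays below 9.1.

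The 2 mating states shared direction more often than size. Of the 269 transcripts called in mated males 203 were also called in nonmated males, 75.5%, against 40.4% of all transcripts. They made up 3.46% of the nonmated list. Of the 203, 107 were higher and 94 lower on organ pipe in both states, and 2 had opposite directions. Over all transcripts 70.8% had the same sign in both states, and over those called in nonmated males 83.3%. The 2 sets of differences share no arrays. They correlated across transcripts at r = 0.59 (transcripts are not independent replicates), and the slope of the mated on the nonmated difference was 0.27. Among the 575 transcripts higher by 2-fold in nonmated males, 500 were higher in mated males too (87%, against 51.3% of all). The median difference of the 575 in mated males was 0.31. Of the 500, 37 passed the test there, against 142 higher calls among all 14528. Among the 839 lower by 2-fold, 802 were lower in mated males, with a median of -0.38. Only 4.41% of the 839 were higher, against 51.3% of all. Of the 802, 44 passed, against 127 lower calls among all 14528. The median over all transcripts was 0.01.

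**Figure D3:**
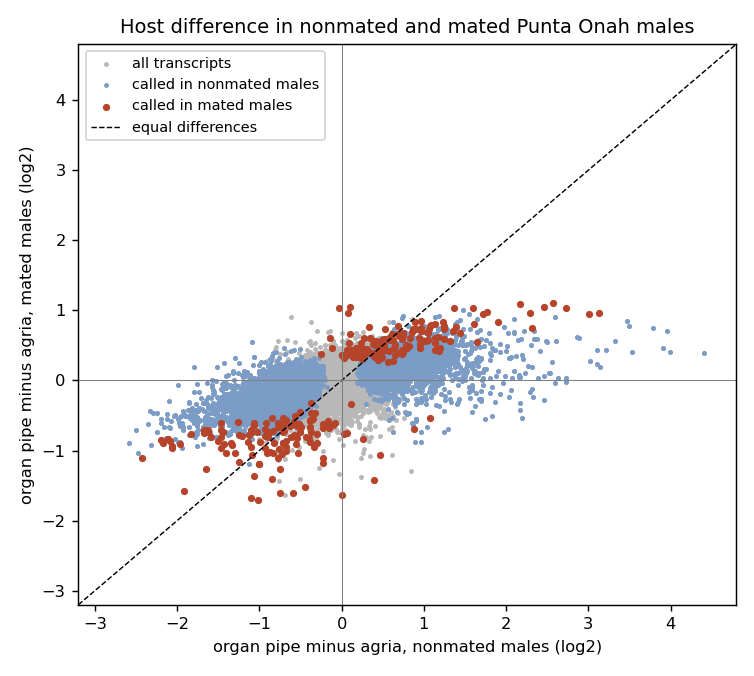
Host difference (organ pipe minus agria, log2) of 14528 transcripts in nonmated males (horizontal axis) and mated males (vertical axis) from Punta Onah, with transcripts called in nonmated males in blue and those called in mated males in red. Points spread along the horizontal axis with a slope of 0.27, flatter than the dashed line of equal differences.

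The difference between the mating states was tested as an interaction of host and mating. It passed in 1282 transcripts (8.82%), 696 with a more positive (4.79%) and 586 with a more negative (4.03%) host difference in mated males. In 510 (3.51%) the interaction was 2-fold or more. In 1247 of the 1282 the nonmated males had the larger host difference in absolute size and in 35 the mated males; 821 had the same sign in both states and 461 opposite signs. The count was 675 without replicate 1 of mated males on organ pipe, 798 without replicate 3 and 1858 without replicate 1 of mated males on agria. The interactions of 2-fold or more numbered 322 and 770 in the first and last of these. More positive calls made up 54.3% of the total; quantile normalization lowered this to 45.7% and giving all arrays one median to 36.0%.

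FBtr0175156 had the smallest p-value among negative interactions, -2.59 ± 0.21 (SE, log2; adjusted p in limma 2.53e-17). Its values in mated males were 12.53, 11.67, 11.82 and 11.88 on agria and 11.99, 11.62, 11.29 and 11.30 on organ pipe. In nonmated males they were 12.29, 12.30, 11.81 and 11.97 on agria and 14.32, 14.11, 14.24 and 14.39 on organ pipe. Only the nonmated organ pipe arrays of the 16 lay at the level seen elsewhere, 13.86 to 14.92 in other males and 13.80 to 15.02 in females. FBtr0168369 followed with -4.02 ± 0.34 (adjusted p 1.23e-16). Among positive interactions FBtr0166221 had the smallest p-value, 1.01 ± 0.15 (adjusted p 1.40e-06). It averaged 10.84 ± 0.16 and 10.94 ± 0.17 in mated males on agria and organ pipe, and 11.06 ± 0.21 and 10.16 ± 0.06 in nonmated males (SD, n = 4 each). FBtr0165351 had 1.99 ± 0.32 (adjusted p 4.40e-06), with means of 10.58 ± 0.26 and 10.76 ± 0.12 in mated and 10.48 ± 0.33 and 8.67 ± 0.32 in nonmated males. Both were higher in females than in males of the other 3 populations, by 1.23 and 2.23, so the 3 raised groups lay toward the female level and the nonmated organ pipe males at the male level (medians of other males 10.24 and 8.83).

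Level on the arrays went with the direction of the host difference. Each quartile of level held 3632 transcripts. In the quartile of transcripts with the lowest mean in other males (up to 9.05), 267 were higher and 1492 lower on organ pipe in nonmated males. These were 7.35% and 41.1%, against 16.9% and 23.6% of all transcripts. In the quartile with the highest mean (11.88 or more), 971 were higher and 315 lower (26.7% and 8.67%). The middle quartiles had 513 higher and 952 lower (14.1% and 26.2%), then 699 higher and 663 lower (19.2% and 18.3%). Medians ran from -0.42 in the dimmest quartile to 0.11 in the brightest, against -0.09 over all transcripts. The direction in the outer quartiles held under both other scalings but narrowed after quantile normalization, to 488 against 827 and 756 against 561. Values of one array spread by an SD of 1.75 to 1.89 in nonmated males on agria and of 1.90 to 1.99 in nonmated males on organ pipe, without overlap; the part of this spread in the result was not tested. Of the 839 transcripts lower by 2-fold on organ pipe, 66.5% belonged to the dimmest quartile, and of the 575 higher by 2-fold 17.7%.

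The sex-biased classes were described next. Of 2285 male-biased transcripts, 537 were higher and 132 lower on organ pipe in nonmated males (23.5% and 5.78%, against 16.9% and 23.6% of all transcripts). Female-biased transcripts numbered 3017, with 414 higher and 729 lower (13.7% and 24.2%), shares near those of all transcripts. Of the 9226 in neither class 1499 were higher and 2561 lower (16.2% and 27.8%). Median differences were 0.15, -0.14 and -0.14, so only the male-biased median was above that of all transcripts. The mated comparison called 6 male-biased transcripts higher and 1 lower on organ pipe (0.263% and 0.0438%). It called 40 and 8 of the female-biased ones (1.33% and 0.265%), against 0.977% and 0.874% of all transcripts. The majorities in nonmated males were smaller after quantile normalization, 546 against 161 for male-biased and 548 against 596 for female-biased transcripts. The male minus female index was 4.94 to 5.01 in nonmated males on organ pipe and 4.08 to 4.46 in nonmated males on agria, without overlap, and 4.35 to 4.76 and 4.15 to 4.64 in mated males on organ pipe and agria, which overlapped.

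Lists set by mating and by population in the other males came next. Of the 524 higher in mated than nonmated males of the other 3 populations, 73 were higher and 123 lower on organ pipe in nonmated Punta Onah males (13.9% and 23.5%, against 16.9% and 23.6% of all), and 16 higher and 1 lower in mated males (3.05% and 0.191%, against 0.977% and 0.874%). Of the 56 lower in mated males elsewhere, 14 were higher and 9 lower in nonmated males (25.0% and 16.1%). Of 2357 transcripts higher in Baja California than in Organ Pipe National Monument males, 379 were higher and 379 lower on organ pipe in nonmated Punta Onah males (16.1% each). The 3349 that were lower in Baja California had 486 higher and 1271 lower (14.5% and 38.0%), with a median of -0.30, and more were lower than higher under both other scalings too, 965 against 599 and 1130 against 530.

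Lists set by host elsewhere were described next; they share no arrays with the Punta Onah males. Of the 409 transcripts lower on organ pipe in San Quintin males, 296 were higher on organ pipe in nonmated Punta Onah males and 5 lower. These were 72.4% and 1.22%, against 16.9% and 23.6% of all transcripts, and the median was 0.68. Of the 295 higher on organ pipe in San Quintin males, 7 were higher and 124 lower (2.37% and 42%), with a median of -0.32. Directions were thus opposite in the 2 populations for most of the called transcripts of these lists, also under both other scalings. In mated males 17 of the 409 were higher and 1 lower (4.16% and 0.244%, against 0.977% and 0.874% of all). Of 1056 transcripts lower on organ pipe in Organ Pipe National Monument males, 206 were higher and 214 lower in nonmated Punta Onah males (19.5% and 20.3%). Mated males had 25 higher and 10 lower (2.37% and 0.947%, against 0.977% and 0.874% of all). Over both mating states 229 were higher and 146 lower (21.7% and 13.8%, against 16.7% and 20.2% of all). Of 664 higher there, 79 were higher and 123 lower in nonmated males (11.9% and 18.5%). Mated males had 2 higher and 13 lower (0.301% and 1.96%). Over both states 60 were higher and 137 lower (9.04% and 20.6%). For the 1056 the share with the opposite direction thus exceeded that of all transcripts in mated males, in nonmated males and over both states. In nonmated males it was 19.5% against 16.9%. For the 664 the share with the opposite direction exceeded that of all in mated males alone. Over both states their share lower was near that of all, and their share higher was below it.

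Punta Onah females also differed from males in direction. Of 143 transcripts higher on organ pipe in Punta Onah females, 107 were lower and 4 higher on organ pipe in nonmated males. These were 74.8% and 2.80%, against 23.6% and 16.9% of all transcripts, and the median was -0.91. In mated males 19 were lower (13.3%, against 0.874% of all) and 0 higher, with a median of -0.36. Of 361 lower in females, 110 were higher and 12 lower in nonmated males (30.5% and 3.32%), with a median of 0.22. In mated males 2 were higher and 5 lower (0.554% and 1.39%, against 0.977% and 0.874% of all), with a median of -0.06. Of the 839 transcripts lower by 2-fold in nonmated males, 791 had a higher value on organ pipe in females, 94.3% against 58.0% of all transcripts. Of these 68 passed the test, against 143 higher calls among all 14528. The same 839 were higher on organ pipe in 78.8% of cases in Punta Prieta males (58.5% of all) and in 64.6% in Organ Pipe National Monument males (48.7% of all), whereas 64.4% were lower in San Quintin males. Few of this set passed the test in other males. In Organ Pipe National Monument males 9 were higher and 42 lower, against 664 and 1056 of all 14528 transcripts. In San Quintin males 10 were higher and 0 lower, against 295 and 409 of all. Each count was a smaller part of the set than of all transcripts, so no direction is read from them. None passed in Punta Prieta males, in this set or over all transcripts. Of the 575 transcripts higher by 2-fold, 92.5% were lower on organ pipe in San Quintin males and 7.48% higher, where 48.4% of all were higher. Past the test were 131 of the lower ones, against 409 lower calls among all 14528. In nonmated males the directions of the lists set in females held under both other scalings.

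The host differences were set against those of other groups by testing the difference itself. Punta Onah males differed in host response from Organ Pipe National Monument males in 4611 transcripts (31.7%), 2196 more positive (15.1%) and 2415 more negative (16.6%). They differed from the mean of the other 3 populations' males in 5119 (35.2%), 2295 (15.8%) and 2824 (19.4%) in the same order. From Punta Onah females they differed in 4557 (31.4%), 2071 (14.3%) and 2486 (17.1%). Differences of at least 2-fold numbered 827 (5.69%), 507 (3.49%) and 886 (6.1%). The majority of more negative calls turned in all 3 comparisons: after quantile normalization to 2375 more positive and 2076 more negative, 2567 and 2338, and 2185 and 2059, and without the dimmest transcripts to 1959 and 1276, 2012 and 1567, and 1783 and 1206. Within single mating states, the other male groups of the series had between 0 and 3259 transcripts called for host. The highest count was in nonmated San Quintin males, and mated San Quintin males had 0. More calls in nonmated than in mated males were thus seen in San Quintin too. The mated San Quintin male groups had 3 replicates each and the nonmated ones 4, so these counts were not at equal power. Organ Pipe National Monument males had 1125 when mated and 645 when nonmated, and Punta Prieta males 0 in both mating states. At an unadjusted p under 0.05 limma had 641 in mated San Quintin males, and 1196 in mated and 508 in nonmated Punta Prieta males. Punta Onah females had 53 when mated and 0 when nonmated, with 1571 and 1602 at an unadjusted p under 0.05.

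**Figure D4:**
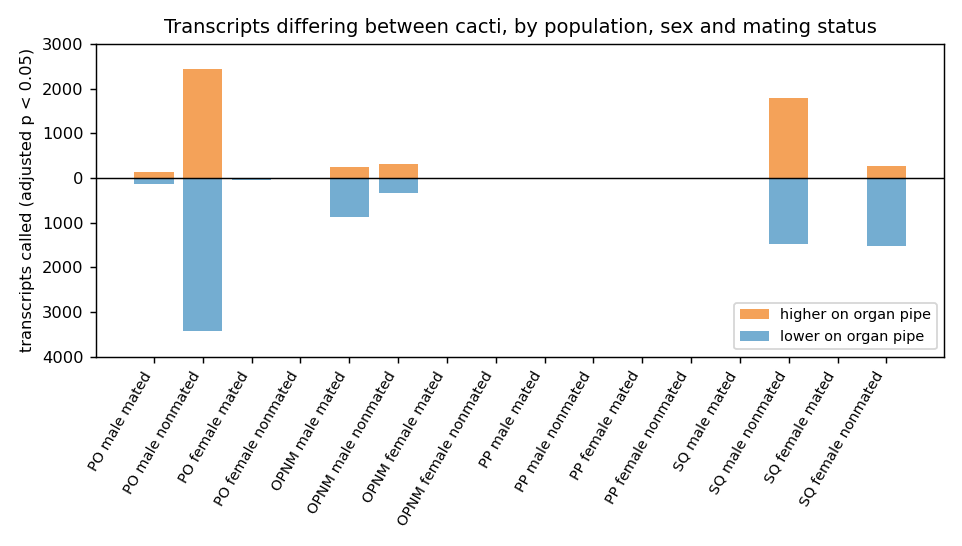
Transcripts called between organ pipe and agria (limma, adjusted p under 0.05) in each population, sex and mating state, with those higher on organ pipe above the line and those lower below it (axis in transcripts). Nonmated Punta Onah males have the longest bars, 2450 and 3422, beside 142 and 127 in mated males.

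FBtr0168369 had the smallest p-value among positive differences for the other populations together and for females. Its host difference over both mating states, 2.40 ± 0.17 in Punta Onah males, exceeded the mean of the other 3 populations' males by 2.80 ± 0.20 (SE, log2; adjusted p in limma 4.52e-21) and that of Punta Onah females by 2.60 ± 0.24 (adjusted p 1.81e-14). San Quintin males went the other way, with a difference of -1.14 ± 0.18. FBtr0166760 exceeded Organ Pipe National Monument males by 2.53 ± 0.21 (adjusted p 7.84e-17), the other populations by 2.18 ± 0.17 and females by 2.26 ± 0.21. It had 7.06, 7.91, 8.80 and 7.74 in mated and 7.47, 7.04, 7.24 and 7.38 in nonmated males on agria. On organ pipe it had 8.19, 8.37, 9.63 and 9.15 in mated and 10.48, 10.24, 10.10 and 10.35 in nonmated males, against a median of 10.32 in other males. FBtr0165111 exceeded Organ Pipe National Monument males by 1.95 ± 0.18 (adjusted p 1.94e-14).

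Among negative differences, FBtr0169140 was below Organ Pipe National Monument males by 1.61 ± 0.22 (difference of host differences -1.61, SE, log2; adjusted p in limma 1.63e-08) and FBtr0163870 had -1.32 ± 0.19 (adjusted p 6.44e-08). FBtr0169140 had nearly equal host differences in mated and nonmated Punta Onah males, -1.19 ± 0.22 and -1.01 ± 0.22, from 10.76 to 11.58 over the 8 agria arrays to 9.68 to 10.73 over the 8 organ pipe arrays, without overlap. FBtr0171735 and FBtr0166647 were the most negative by p against the other populations, with -1.44 ± 0.17 and -1.17 ± 0.14 (adjusted p 1.42e-10 and 1.83e-10). Against females these were FBtr0165842 and FBtr0165505, with -2.08 ± 0.20 and -1.96 ± 0.20 (adjusted p 6.17e-14 and 1.44e-12). FBtr0165842 fell on organ pipe in males by 1.49 ± 0.14 and rose in females by 0.59 ± 0.14 (adjusted p 0.0081), and its mean in nonmated males was 9.65 ± 0.33 on agria and 7.59 ± 0.15 on organ pipe (SD, n = 4 each).

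The levels behind the nonmated host difference were then set beside all other males. For each array, the mean of the 839 transcripts lower by 2-fold was subtracted from the mean of the 575 higher by 2-fold. In the nonmated Punta Onah males this is a description of the transcripts chosen: -0.18, -0.11, -0.33 and 0.49 on agria and 2.90, 2.67, 2.80 and 2.58 on organ pipe. Mated males on agria had -0.26, 0.89, 0.90 and 0.65, and mated males on organ pipe 0.73, 0.88, 1.65 and 1.71. The 45 other male replicates lay between 1.09 and 2.64 with a median of 2.21, and their agria and organ pipe replicates had medians of 2.22 and 2.20. Every agria array and 2 of the 4 mated organ pipe arrays from Punta Onah thus lay below all other males, while 3 of the 4 nonmated organ pipe arrays lay above all of them. Females ranged from 0.46 to 1.46.

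The means of single transcripts were set against the 12 other male group means. Both sets were chosen for a large gap between the nonmated groups, so the place of those 2 groups partly restates the choice and is given as a description. Of the 575 transcripts higher on organ pipe, the nonmated agria mean lay below all 12 in 535 (93.0%, against 20.0% of all transcripts), and the nonmated organ pipe mean lay above all 12 in 180 (31.3%, against 10.1%) and below in 12. Of the 839 lower ones, the nonmated agria mean lay above all 12 in 665 (79.3%, against 26.6%), and the nonmated organ pipe mean below all 12 in 188 (22.4%, against 8.41%) and above in 5. The mated groups took no part in the choice. Their agria mean lay below all 12 in 479 of the 575 (83.3%, against 18.8% of all) and above in 443 of the 839 (52.8%, against 26.2%), and their organ pipe mean in 364 (63.3%, against 14.7%) and 272 (32.4%, against 23.7%). Over all 14528 transcripts the nonmated organ pipe mean lay within the range of the 12 other groups in 81.5% and the nonmated agria mean in 53.4%.

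**Figure D5:**
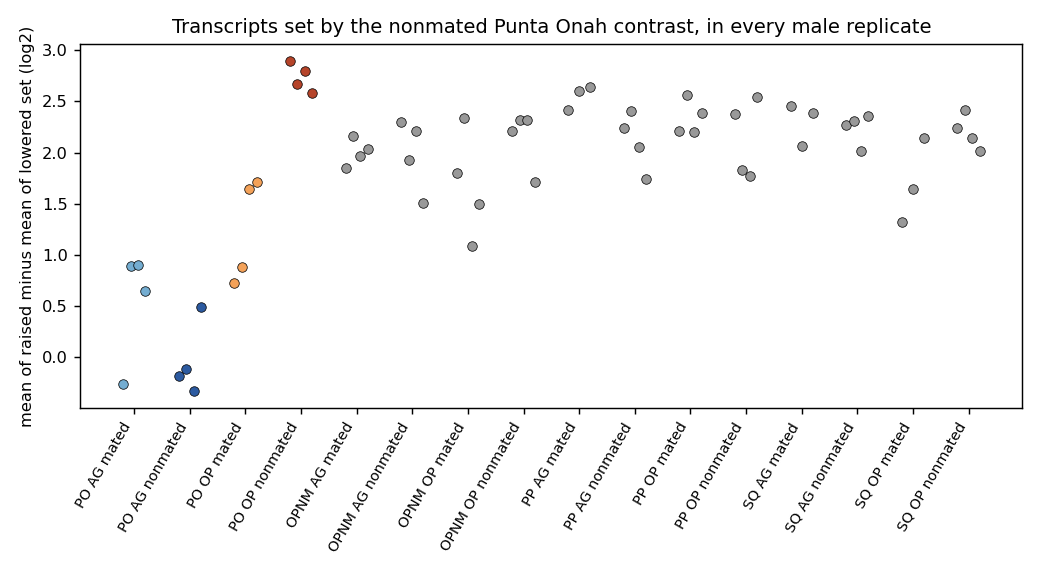
Mean log2 value of the 575 transcripts higher minus that of the 839 lower by 2-fold on organ pipe in nonmated Punta Onah males, for every male replicate (points) in the 16 male groups (AG agria, OP organ pipe). The Punta Onah arrays on agria lie between -0.33 and 0.90, the mated ones on organ pipe between 0.73 and 1.71, the nonmated ones on organ pipe between 2.58 and 2.90 and other males between 1.09 and 2.64.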

How the data were processed

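RNA was total RNA, purified with a column kit including DNase digestion and labelled with Cy3 on single-colour arrays, per the labels' protocols. The deposited table holds log2 values per transcript; RMA, without a version, is the tool that the submitters' processing notes list. That the scale is log2 follows from the range of 4.64 to 15.78. Scanner files, slides and scan dates were not used here, so background and saturation could not be examined; for arrays, their number limits precision.

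One model with a mean for each of 32 groups was fitted in limma 3.58.1 (R 4.3.3) to 123 replicates (4 pairs of San Quintin arrays sharing a number were averaged), with 91 residual and 4.67 prior degrees of freedom. Tests were two-sided, with Benjamini-Hochberg adjustment over 14528 transcripts, called under 0.05. Male-biased and female-biased transcripts were called for sex with more than 2-fold difference in the other 3 populations. Named transcripts were, for the 3 host differences, the 2 largest called rises and falls without overlap of arrays (for both states together, also with the same sign in each state), and for the 4 differences of host differences the 2 smallest p-values in each direction. Lists fixed by gene function need names and were not run; the lists used and the transcripts were chosen with earlier results of these data known.

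Alternatives were another scaling, a filter on dim transcripts, array weights, another variance prior and San Quintin arrays kept separate. Further ones were fits to the arrays compared alone, the replicate number as a block and leaving out each Punta Onah male array. No array of the comparison groups was left out.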

Additional observations from a re-analysis of the deposited data

Results flagged for a closer look

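FBtr0172202 was at 8.96 in replicate 1 of nonmated males on organ pipe, against 8.51 to 8.59 in the other 3. FBtr0174553 was at 9.39 in replicate 3 of the same group, against 9.73 to 9.80. FBtr0169215 was at 10.15 in replicate 4 of mated males on agria, against 10.67 to 10.75. In each case the gap to the nearest of the other arrays was large relative to the range of the group. In all, 108 groups of 4 values were examined and 3 stood out, where chance gives about 1 in 20. They covered the named transcripts, the array median and SD, the male minus female index and the index of transcripts chosen by the nonmated host difference.

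The host difference of Punta Onah males differed with mating in 1282 transcripts, from Organ Pipe National Monument males in 4611, from the mean of the other 3 populations' males in 5119 and from Punta Onah females in 4557, each by a test of the difference itself in limma.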

How the results depend on the processing

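Of 599 values of named transcripts under the alternatives, 580 kept direction and call and 19, all of transcripts named for mated males, kept the direction but lost the call; 0 reversed. Counts of calls moved by over 1.5 times as follows; the cause was not tested unless fewer transcripts or arrays were used. For mated males the count of 269 was 596 with array weights, 0 in a fit to the 16 Punta Onah male arrays alone, 50 there with the replicate block and 178 without the dimmest 25% of transcripts, and its 36 transcripts with 2-fold differences were 0, 21 and 19 in the last 3. For host by mating it was 2384 with array weights and 777 in the fit alone, for host by sex 7010 with array weights and 2989 without the dimmest transcripts, and for Punta Onah against Organ Pipe National Monument males 2954 in the fit to these arrays alone and 2892 with the block. Counts of 2-fold differences without the dimmest transcripts were 163 for both mating states, 775 for nonmated males, 274 for host by mating, 518 and 300 against Organ Pipe National Monument and the other populations, and 420 by sex. The estimate of array weights stopped before it converged.

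Without each Punta Onah male array in turn, calls ranged from 4258 to 5615 for both mating states (2-fold 245 to 418). They ranged from 16 to 675 for mated males (6 to 85) and from 4846 to 5738 for nonmated males (1241 to 1735). For host by mating the range was 675 to 1858 (322 to 770). Against Organ Pipe National Monument and the other populations it was 3995 to 4877 and 4278 to 5421 (665 to 1020 and 378 to 651). By sex it was 3788 to 4825 (730 to 1020).

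Whether replicate numbers pair the arrays was not settled. Same-numbered deviations correlated at -0.407 to 0.461 (mean 0.061), 10 of 24 pairs over 0.1, and 7 of 16 arrays lay closest to their own number. Differently numbered ones correlated at -0.46 to 0.585 (mean -0.02). With the replicate block the counts were 5947 for both states, 6502 for nonmated males and 1089 for host by mating. The same fits without the block had 5626, 6161 and 777. Against the other populations the count was 4533 with and 4594 without the block, and by sex 5354 and 5530.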
